A study of Homo sapiens with 6 samples.

Results

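The let-7 family guide strands are the mature miRNAs from the 5p arms of the let-7 hairpins and of MIR98. All 9 were found by name among the 2656 miRNAs of a small RNA count table. They are hsa-let-7a-5p, let-7b-5p, let-7c-5p, let-7d-5p, let-7e-5p, let-7f-5p, let-7g-5p, let-7i-5p and miR-98-5p. The table holds 3 libraries of azacitidine-resistant K562 cells, made by months of growth in rising azacitidine, and 3 libraries of azacitidine-sensitive K562 cells, from which the resistant cells were derived. Both forms were grown in RPMI medium with serum. K562 is a human erythroleukaemia line, and azacitidine is a cytidine analogue that traps DNA methyltransferases. The labels call the 3 libraries of each form biological replicates and name no separate selections of resistant cells, so p-values cover the spread between libraries. They do not state whether azacitidine was in the medium at harvest, and the letters NT in all 6 library names are not explained.

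let-7 miRNAs are loaded into Argonaute proteins and repress mRNAs that pair with their seed, the bases near the 5′ end that lead target recognition. RAS, MYC, HMGA2 and LIN28 transcripts are among their known targets. LIN28 proteins in turn bind let-7 precursors and block their maturation, and mature let-7 is low in embryonic and many cancer cells and accumulates as cells differentiate. The LIN28 proteins and the target mRNAs are not measured by small RNA counts.

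The mature sequences, from RefSeq (GRCh38.p14), are shown because the members differ by few bases and are told apart by those bases alone. The capitals mark the seed, bases 2 to 8, which is the same in all 9.
let-7a-5p: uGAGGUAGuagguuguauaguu
let-7b-5p: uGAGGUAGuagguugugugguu
let-7c-5p: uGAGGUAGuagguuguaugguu
let-7d-5p: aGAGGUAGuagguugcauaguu
let-7e-5p: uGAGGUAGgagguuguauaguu
let-7f-5p: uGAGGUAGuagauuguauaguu
let-7g-5p: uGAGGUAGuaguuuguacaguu
let-7i-5p: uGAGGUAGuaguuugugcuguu
miR-98-5p: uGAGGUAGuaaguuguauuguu

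Each member is 22 bases long. Counted from the 5′ end, with the base of let-7a-5p first, let-7c-5p carries A19G and let-7b-5p carries A17G and A19G. let-7e-5p carries U9G, let-7f-5p carries G12A, and let-7d-5p carries U1A and U16C. let-7g-5p carries G12U and U18C, let-7i-5p carries G12U, A17G, U18C and A19U, and miR-98-5p carries G11A and A19U. Of the 36 pairs of members, 4 differ by a single base. These pairs link let-7a-5p, let-7b-5p, let-7c-5p, let-7e-5p and let-7f-5p. How the authors assigned reads with a mismatch is not given in the sources used here, so the split of counts among these 5 is uncertain.

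The 9 guide strands come from 12 hairpins. let-7a-5p has 3, on chromosome 9 (94175957 to 94176036, plus strand), chromosome 11 (122146522 to 122146593, minus strand) and chromosome 22 (46112749 to 46112822, plus strand). The chromosome 9 copy lies in an intron of a long non-coding RNA with MIRLET7F1 (94176347 to 94176433) and MIRLET7D (94178834 to 94178920). The chromosome 11 copy is intronic in MIR100HG, beside MIR100 and MIR125B1. The chromosome 22 copy is exonic in MIRLET7BHG, as is MIRLET7B (46113686 to 46113768). MIRLET7C (chromosome 21, 16539828 to 16539911, plus strand) is intronic in MIR99AHG beside MIR99A, and MIRLET7E (chromosome 19, 51692786 to 51692864, plus strand) is intronic in SPACA6 beside MIR99B and MIR125A. MIRLET7F2 (53557192 to 53557274) and MIR98 (53556223 to 53556341) share an intron-borne cluster in HUWE1 on the minus strand of chromosome X. MIRLET7G is intronic in WDR82 on chromosome 3 (52268278 to 52268361, minus strand), and MIRLET7I is intronic in a long non-coding RNA on chromosome 12 (62603686 to 62603769, plus strand).

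Library totals were 3291500 to 10644739 counts in resistant and 5660055 to 12563945 counts in sensitive libraries. Resistant replicate 3, the shallowest library, stood apart: across tested miRNAs Pearson's r of its log2 CPM (counts scaled to a common library size) was 0.875 to resistant replicate 1 and 0.864 to resistant replicate 2, and miR-92a-3p alone held 58.6% of its counts, against 20.2% and 17.5% in these. Results are therefore given with and without it. The labels give the cell type as myeloblast. Erythroid, myeloid and other markers were looked at as lists. All 5 arms of miR-144, miR-451a and miR-486 had enough counts to be tested. Their summed level was 10833 to 65224 CPM in resistant and 5528 to 7365 CPM in sensitive libraries, most of it miR-486-5p in every library. Of these arms, 0 passed with edgeR over all 6 libraries, 2 had an unadjusted p under 0.05 and 2 passed with DESeq2, and miR-486-5p and miR-486-3p had the 2 positive fold changes. Over all 768 tested miRNAs, edgeR called 4.17% and DESeq2 19.4% in either direction, and 205 had an unadjusted p under 0.05. Without resistant replicate 3, miR-486-5p and miR-486-3p rose. That fit, used again for the markers below, called 13.7% of 822 tested miRNAs higher and 28.1% in either direction. Summed levels of the 3 myeloid arms were 1350 to 10466 CPM in resistant and 11649 to 13054 CPM in sensitive libraries, with 0 of 3 passing with edgeR, with DESeq2 or at an unadjusted p under 0.05, and miR-223-3p lower without resistant replicate 3. The 10 markers of other cell types summed to 9718 to 26438 CPM in resistant and 36508 to 54720 CPM in sensitive libraries, nearly all of it miR-126-3p and miR-9-5p. Of these 10, 6 were tested and 1, miR-200c-3p, rose with edgeR, and DESeq2 called 1 higher and 1 lower. In the fit without resistant replicate 3, miR-200c-3p and miR-141-3p rose, while miR-9-5p fell 4.50-fold (adjusted p = 0.000726 by edgeR) and miR-126-3p fell 1.76-fold (adjusted p = 0.00883 by edgeR). miR-206 was at 0 in all resistant libraries and had 1, 0 and 0 counts in sensitive replicates 1 to 3. miR-124-3p and miR-205-5p were at 0 in all sensitive libraries and had 2, 1 and 0 and 1, 2 and 0 counts in resistant replicates 1 to 3. None of these arms had enough counts to be tested. The part of these shifts in the let-7 results was not tested.

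The let-7 family held a larger share of the counts in every resistant library than in any sensitive library. The 9 members together held 1.17%, 1.17% and 1.26% of the counts of resistant replicates 1 to 3, against 0.353%, 0.356% and 0.304% in sensitive replicates 1 to 3. The exact (Clopper-Pearson) 95% binomial intervals, which cover counting error only, did not meet: the lowest resistant bound was 1.16% and the highest sensitive bound 0.359%. The mean share was 1.20 ± 0.0499% in resistant and 0.337 ± 0.0288% in sensitive libraries (SD, n = 3 each), a 3.56-fold ratio. The two-sided exact permutation p was 0.1, the smallest that 3 libraries against 3 can give. With the most abundant miRNA of each library left out of the total, the share was 1.47%, 1.42% and 3.04% in resistant replicates 1 to 3, against 0.426%, 0.439% and 0.362% in sensitive replicates 1 to 3. Resistant replicate 3, close to the other resistant libraries on all counts, was then far above them.

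On the CPM scale, with libraries scaled by trimmed mean of M values (TMM) factors, the summed family reached 9916, 9391 and 16259 CPM in resistant replicates 1 to 3 and 3688, 3703 and 3187 CPM in sensitive replicates 1 to 3. The groups did not overlap, and resistant replicate 3 was the highest library. Entered as 1 feature into the edgeR fit over all miRNAs, the sum had a log2 fold change of 1.76 (SE 0.40) and narrowly missed the threshold of 0.05 (adjusted p = 0.0553 by edgeR; over its alternatives the adjusted p ran from 5.67e-06 to 0.301). Without resistant replicate 3 the sum rose 2.84-fold (1.51 ± 0.18 SE on the log2 scale, adjusted p = 3.94e-05 by edgeR). The sum also passed with library totals, limma-voom, DESeq2 and a correction for GC content.

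Most of the difference was let-7a-5p. It made up 72.0% of the difference between the groups' mean summed CPM, and 69.3% without resistant replicate 3. Without let-7a-5p in the sum, the remaining 8 members had a log2 fold change of 1.05 (SE 0.35, adjusted p = 0.133 by edgeR). Without let-7f-5p as well, the other 7 had 1.42 (SE 0.42, adjusted p = 0.116 by edgeR).

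Counted singly, all 9 members were tested and 4 rose with the 6 libraries: let-7a-5p, let-7b-5p, let-7c-5p and let-7d-5p. Over all 768 tested miRNAs, 2.08% were called higher and 4.17% in either direction. In bulk RNA, a difference in the share of cells that hold a miRNA and one in its amount per cell cannot be told apart. All 9 members had a positive log2 fold change, where 46.2% of all tested had one, and their median was 1.16 against -0.11 over all tested. Without resistant replicate 3, 8 of the 9 rose, all but let-7e-5p, where 13.7% of 822 tested miRNAs were called higher and 28.1% in either direction. All 9 fold changes were then positive again, where 52.2% of all were, and the median was 1.30 against 0.04 over all. The count of 4 changed when single libraries were left out. It was 1 without resistant replicate 1 and 3 without resistant replicate 2, where 7 of 816 and 26 of 785 miRNAs were called in either direction. In these fits 6 and 8 members had an unadjusted p under 0.05, as did 25.9% and 32.7% of all tested. The count was 0 of 9 with edgeR when sensitive replicate 1, 2 or 3 was left out, but these fits called only 5 of 801, 4 of 800 and 5 of 833 miRNAs in either direction. In them 5, 7 and 6 members had an unadjusted p under 0.05, as did 13.0%, 13.2% and 17.0% of all tested. DESeq2, run on all 6 libraries, called 7 members higher, where 12.8% of all were.

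**Figure D1:**
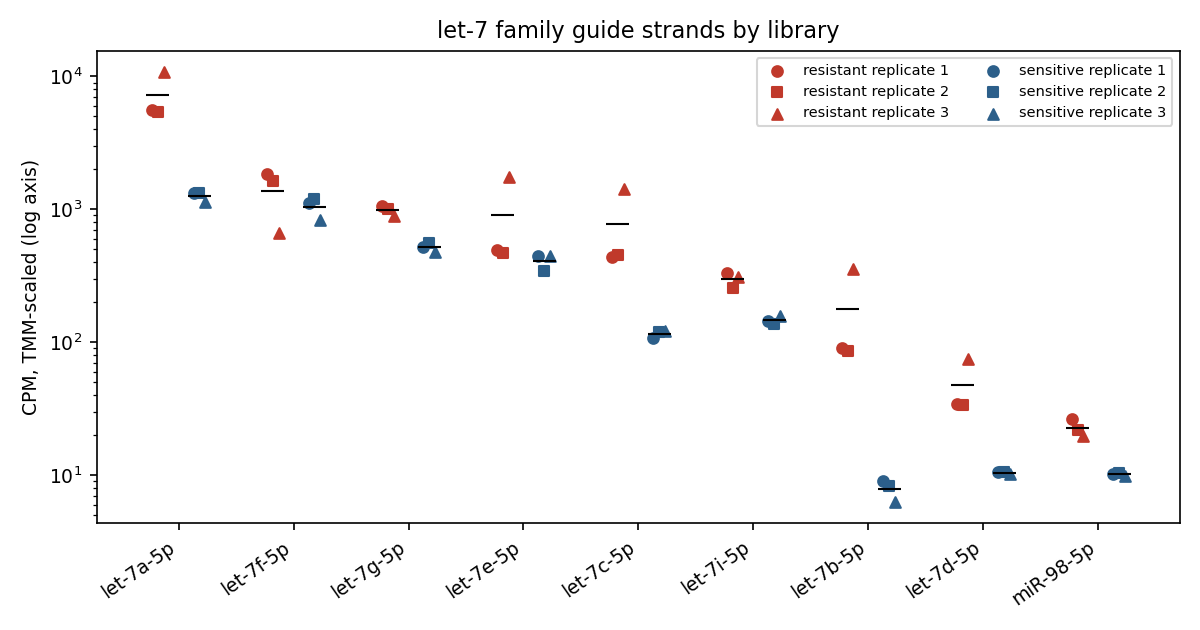
CPM on a log axis for each of the 9 members, with the 3 resistant libraries in red left of the 3 sensitive libraries in blue, marker shapes for replicates 1 to 3 and black bars for group means. let-7f-5p is the only member whose groups overlap, and resistant replicate 3 (red triangle) is highest for let-7a-5p, let-7b-5p, let-7c-5p, let-7d-5p and let-7e-5p.

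In the plot of CPM by library, the groups were apart for 8 of the 9 members, with resistant libraries higher in each, where 18.9% of all tested miRNAs had such a gap in that direction and 41.8% in either. let-7f-5p was the exception, through resistant replicate 3.

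hsa-let-7a-5p was the most abundant member in every library. It reached 5592, 5429 and 10752 CPM in resistant replicates 1 to 3, against 1324, 1329 and 1133 CPM in sensitive replicates 1 to 3. The lowest resistant library was well above the highest sensitive library. let-7a-5p rose 5.75-fold (2.52 ± 0.43 SE on the log2 scale, adjusted p = 0.0198 by edgeR), and 4.53-fold without resistant replicate 3 (adjusted p = 4.17e-06 by edgeR).

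hsa-let-7c-5p, from the MIR99AHG locus, reached 441, 455 and 1425 CPM in resistant replicates 1 to 3, against 107, 120.1 and 122 CPM in sensitive replicates 1 to 3. All resistant libraries were higher, with resistant replicate 3 far above the others. let-7c-5p rose 6.65-fold (2.73 ± 0.57 SE on the log2 scale, adjusted p = 0.0467 by edgeR), and 3.999-fold without that library (adjusted p = 2.36e-05 by edgeR).

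hsa-let-7b-5p, made beside a let-7a hairpin in MIRLET7BHG, was the scarcest member in sensitive and the seventh in resistant cells. It reached 90.1, 86.5 and 357 CPM in resistant replicates 1 to 3, against 9.07, 8.27 and 6.29 CPM in sensitive replicates 1 to 3. It had the largest fold change of the 9, 22.4-fold (4.49 ± 0.71 SE on the log2 scale, adjusted p = 0.0154 by edgeR), which was 11.5-fold without resistant replicate 3 (adjusted p = 2.12e-06 by edgeR). By log2 fold change it stood at rank 7 of the 768 tested miRNAs and at rank 8 of 822 without that library.

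hsa-let-7d-5p, made from the chromosome 9 cluster with let-7a and let-7f, reached 34.1, 33.7 and 75.0 CPM in resistant replicates 1 to 3, against 10.6, 10.5 and 10.2 CPM in sensitive replicates 1 to 3. Resistant libraries were higher throughout. let-7d-5p rose 4.54-fold (2.18 ± 0.47 SE on the log2 scale, adjusted p = 0.0482 by edgeR), and 3.37-fold without resistant replicate 3 (adjusted p = 0.000311 by edgeR).

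hsa-let-7g-5p and let-7i-5p, which share G12U and U18C, differed between the forms by about the same factor. let-7g-5p had 1069, 1000.3 and 889.7 CPM in resistant replicates 1 to 3, against 522, 554 and 476 CPM in sensitive replicates 1 to 3. let-7i-5p had 333, 256 and 309 CPM in resistant replicates 1 to 3, against 144, 137 and 158 CPM in sensitive replicates 1 to 3. The groups were apart for both, and resistant replicate 3 lay close to the other resistant libraries. With 6 libraries neither passed (0.93 ± 0.34 SE on the log2 scale, adjusted p = 0.149 by edgeR for let-7g-5p; 1.03, SE 0.35, adjusted p = 0.134 by edgeR for let-7i-5p). Without resistant replicate 3 both rose, let-7g-5p 2.07-fold and let-7i-5p 2.08-fold (adjusted p = 0.00199 and 0.00377 by edgeR).

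hsa-miR-98-5p had 26.5, 22.0 and 19.6 CPM in resistant replicates 1 to 3, against 10.2, 10.4 and 9.81 CPM in sensitive replicates 1 to 3. The groups did not overlap. Its log2 fold change was 1.16 (SE 0.37, adjusted p = 0.130 by edgeR), and without resistant replicate 3 it rose 2.47-fold (adjusted p = 0.00245 by edgeR).

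hsa-let-7f-5p, the second member by mean level in both forms, had 1840, 1644 and 669 CPM in resistant replicates 1 to 3, against 1117, 1193 and 825 CPM in sensitive replicates 1 to 3. Resistant replicate 3 was the lowest library of all, while the other 2 resistant libraries were above every sensitive library. Its log2 fold change was 0.41 (SE 0.47, adjusted p = 0.599 by edgeR), and without that library it rose 1.73-fold (adjusted p = 0.0149 by edgeR).

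hsa-let-7e-5p, from the SPACA6 locus, was the member with the smallest fold change when resistant replicate 3 was left out. It had 491, 466 and 1763 CPM in resistant replicates 1 to 3, against 444, 341 and 447 CPM in sensitive replicates 1 to 3. Resistant replicates 1 and 2 lay just above the highest sensitive library. It did not pass with all libraries (1.14 ± 0.59 SE on the log2 scale, adjusted p = 0.238 by edgeR) or without resistant replicate 3 (0.27, SE 0.21, adjusted p = 0.392 by edgeR).

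**Figure D2:**
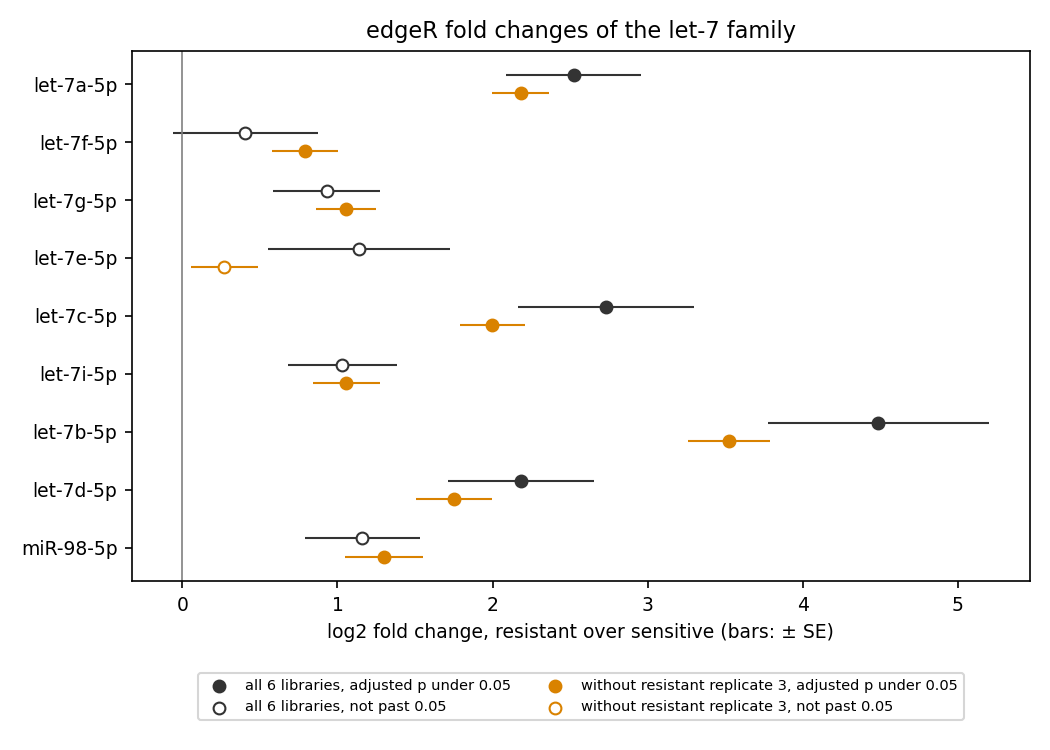
edgeR log2 fold changes of resistant over sensitive cells with standard errors as bars, for all 6 libraries (dark) and without resistant replicate 3 (orange), with filled symbols for an adjusted p under 0.05. let-7b-5p, let-7c-5p and let-7a-5p lie furthest right with all libraries, and let-7e-5p is the only open orange symbol.

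The plot of fold changes shows narrower errors without resistant replicate 3 for all 9 members. The SE of let-7b-5p was 0.71 with and 0.26 without that library. Log2 fold changes without it ran from 0.27 for let-7e-5p to 3.52 for let-7b-5p.

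Merging the 5 members linked by single bases sets aside how their reads were divided. The merged feature had 8454, 8080 and 14965 CPM in resistant replicates 1 to 3, against 3001, 2991 and 2533 CPM in sensitive replicates 1 to 3. Its log2 fold change was 1.89 (SE 0.41, adjusted p = 0.0512 by edgeR). With this merge 0 of the 5 remaining features passed with edgeR, where 0.916% of all 764 features were called higher. All 5 had an unadjusted p under 0.05, as did 26.6% of all, and all 5 passed with DESeq2, where 12.6% of all were higher. All 5 also rose without resistant replicate 3, where 13.4% of 818 did, the merged feature 3.02-fold (adjusted p = 6.04e-05 by edgeR).

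The make-up of the family differed as well. let-7a-5p held 56.4%, 57.8% and 66.1% of the family's counts in resistant replicates 1 to 3, against 35.9%, 35.9% and 35.5% in sensitive replicates 1 to 3. let-7f-5p held 18.6%, 17.5% and 4.12% in resistant replicates 1 to 3, against 30.3%, 32.2% and 25.9% in sensitive replicates 1 to 3. Sensitive cells had let-7a-5p and let-7f-5p at similar levels, with 1.18, 1.11 and 1.37 counts of let-7a-5p per count of let-7f-5p, while resistant replicates 1 to 3 had 3.04, 3.30 and 16.1.

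hsa-let-7g-5p held 10.8%, 10.7% and 5.47% of the family in resistant replicates 1 to 3, against 14.2%, 15.0% and 14.9% in sensitive replicates 1 to 3. let-7e-5p held 4.95%, 4.96% and 10.8% in resistant replicates 1 to 3, against 12.0%, 9.21% and 14.0% in sensitive replicates 1 to 3, and was the only member whose share overlapped between the groups, through resistant replicate 3. The mean share of let-7i-5p was 2.66 ± 0.728% in resistant and 4.19 ± 0.676% in sensitive libraries, and that of miR-98-5p was 0.207 ± 0.0766% in resistant and 0.289 ± 0.0164% in sensitive libraries (SD, n = 3 each). These shares were lower in every resistant library although CPM were higher.

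hsa-let-7c-5p held 6.02 ± 2.39% of the family in resistant and 3.32 ± 0.464% in sensitive libraries (SD, n = 3 each). let-7b-5p held 1.34 ± 0.740% in resistant and 0.222 ± 0.0243% in sensitive libraries, and let-7d-5p held 0.388 ± 0.0641% in resistant and 0.297 ± 0.0196% in sensitive libraries. With let-7a-5p, these were the members whose share was higher in every resistant library. The two-sided exact permutation p was 0.1, the smallest possible, for each of the 8 members without overlap and 0.2 for let-7e-5p. In all, 28.2 percentage points of the family would have to move between members to turn one mean make-up into the other, with 23.4 to 31.1 points when 1 library was left out. Shares of a whole are tied, so a higher share of let-7a-5p lowers those of other members. Taken among the other members alone, the distance was 14.7 points. let-7b-5p, let-7c-5p and let-7d-5p still had higher shares in every resistant library. The shares of let-7e-5p, let-7f-5p, let-7g-5p, let-7i-5p and miR-98-5p then overlapped between the groups. Without resistant replicate 3, those of let-7g-5p and miR-98-5p were higher and that of let-7e-5p lower. Replicates 1 and 2 of the resistant form differed by 1.85 points, and sensitive replicates by 3.06 to 6.71 points among themselves. Resistant replicate 3 differed from the other resistant libraries by 21.3 and 19.5 points, which is about as far as these were from the sensitive libraries (22.2 to 24.6 points), and it was 37.7 to 39.5 points from the sensitive libraries.

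**Figure D3:**
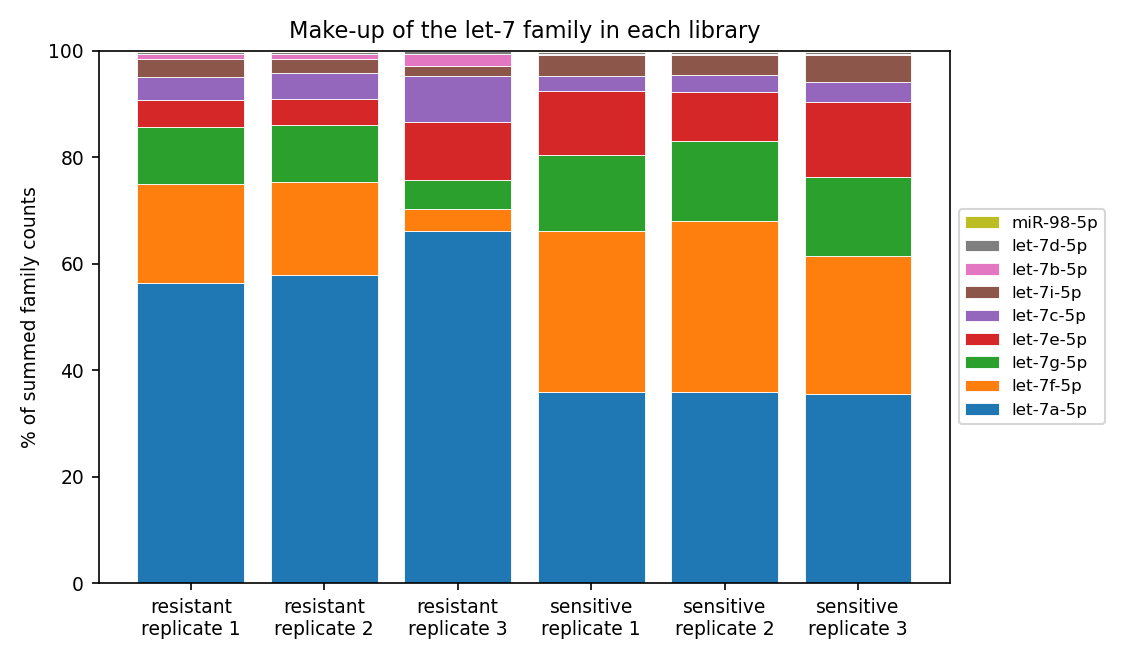
Percent of the summed family counts held by each member, as stacked bars for resistant replicates 1 to 3 on the left and sensitive replicates 1 to 3 on the right. let-7a-5p takes 56.4% to 66.1% of the resistant bars against 35.5% to 35.9% of the sensitive bars, and let-7f-5p is thinnest in resistant replicate 3.

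The order of counts was the same in every sensitive library. It ran from let-7a-5p through let-7f-5p, let-7g-5p, let-7e-5p, let-7i-5p, let-7c-5p, let-7d-5p and miR-98-5p to let-7b-5p. The CPM ranges overlapped between let-7a-5p and let-7f-5p and between let-7d-5p and miR-98-5p. In resistant replicates 1 and 2 let-7c-5p stood above let-7i-5p, and let-7b-5p above let-7d-5p and miR-98-5p. In resistant replicate 3 let-7e-5p and let-7c-5p came next after let-7a-5p, ahead of let-7g-5p and let-7f-5p. Among resistant libraries the ranges of let-7f-5p, let-7g-5p, let-7e-5p and let-7c-5p overlapped from neighbour to neighbour, as did those of let-7i-5p and let-7b-5p. Adapter ligation favours some RNA ends over others, so an order of counts need not be an order of molecules.

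Set against let-7a-5p in the same library, which needs no scaling factor, let-7c-5p did not separate the groups. Its counts were 7.89%, 8.38% and 13.3% of those of let-7a-5p in resistant replicates 1 to 3, against 8.09%, 9.04% and 10.7% in sensitive replicates 1 to 3. The groups overlapped (exact permutation p = 0.9, two-sided), with resistant replicate 1 just below and resistant replicate 3 above every sensitive library. let-7c-5p differs from let-7a-5p by A19G alone, and whether part of its counts are let-7a-5p reads was not tested. let-7b-5p, by contrast, was 1.61%, 1.59% and 3.32% of let-7a-5p in resistant replicates 1 to 3, against 0.685%, 0.623% and 0.555% in sensitive replicates 1 to 3. let-7d-5p was 0.610%, 0.620% and 0.698% of let-7a-5p in resistant replicates 1 to 3, against 0.799%, 0.792% and 0.899% in sensitive replicates 1 to 3. The let-7b-5p ratio was thus higher and the let-7d-5p ratio lower in every resistant library (exact permutation p = 0.1 for each, two-sided, the smallest possible). As let-7a-5p itself rose 5.75-fold, a miRNA that rose less, such as let-7d-5p at 4.54-fold, can have a lower ratio. How many of all miRNAs separate the groups by this ratio was not counted.

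The ratio of let-7i-5p to let-7g-5p overlapped between the forms, at 31.1%, 25.5% and 34.7% in resistant replicates 1 to 3, against 27.5%, 24.8% and 33.2% in sensitive replicates 1 to 3 (exact permutation p = 0.7, two-sided). The largest ratio of each group was in replicate 3. A p that misses the threshold does not show that these ratios were equal.

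**Figure D4:**
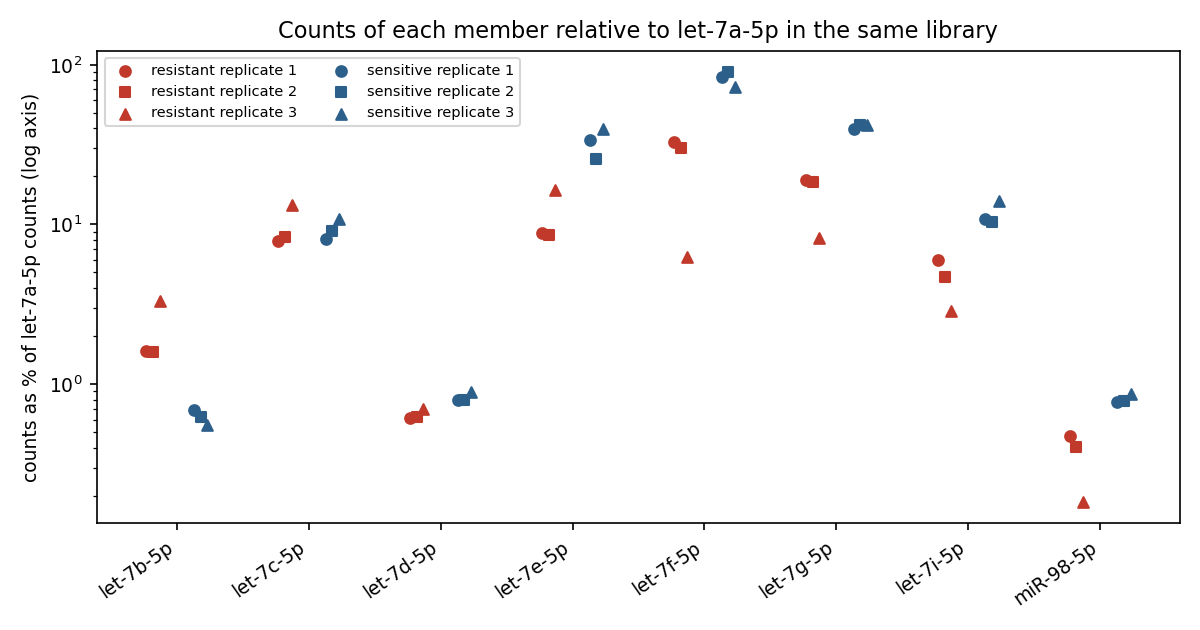
Counts of each other member as a percentage of let-7a-5p counts in the same library, on a log axis, with resistant libraries in red left of sensitive libraries in blue. let-7c-5p is the only member whose groups overlap, let-7b-5p is higher and the other 6 are lower in the resistant libraries. Because let-7a-5p itself rose 5.75-fold, a lower ratio does not mean a lower level.

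Resistant replicate 3 departed from resistant replicates 1 and 2 unevenly across the sequences printed above. Its log2 CPM was above their mean by 2.01 for let-7b-5p, 1.88 for let-7e-5p, 1.67 for let-7c-5p, 1.14 for let-7d-5p and 0.96 for let-7a-5p. It was 0.08 above for let-7i-5p and differed by -0.22 for let-7g-5p, -0.29 for miR-98-5p and -1.38 for let-7f-5p. The number of G and C bases is 10 in let-7b-5p, 9 in let-7c-5p, let-7d-5p, let-7e-5p and let-7i-5p, 8 in let-7a-5p and let-7g-5p and 7 in let-7f-5p and miR-98-5p. Across the 9 members, which share these libraries, Spearman's rho between that number and the deviation was 0.896, given as a description. The 4 members with a substitution at position 11 or 12 (G12A, G12U or G11A) deviated by -1.38 to 0.08 and the 5 without one by 0.96 to 2.01, a grouping chosen after the values were seen. Between the groups of cells, rho of GC number with the log2 fold change was 0.580 over 6 libraries and 0.387 when resistant replicate 3 was left out.

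**Figure D5:**
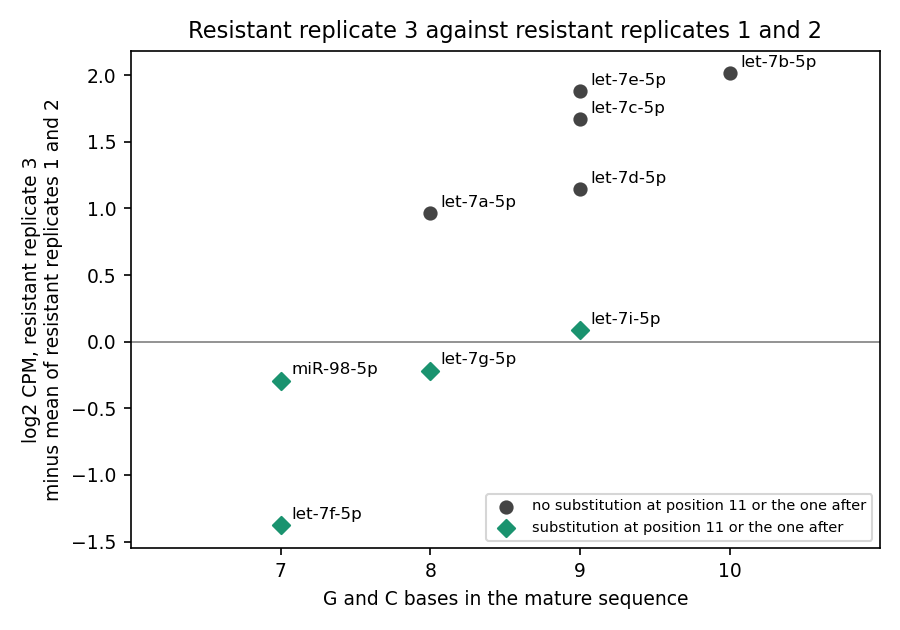
Difference in log2 CPM between resistant replicate 3 and the mean of resistant replicates 1 and 2 against the number of G and C bases in the mature sequence, 1 point per member, with green diamonds for a substitution at position 11 or the one after. let-7b-5p lies at 2.01 with 10 such bases and let-7f-5p at -1.38 with 7.

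With a correction for the GC content of the mature sequence in each library, 8 of the 9 members passed with all 6 libraries, all but let-7e-5p, where 5.60% of all tested miRNAs were called higher and 9.64% in either direction. The log2 fold change of let-7f-5p was then 1.29 (SE 0.31, adjusted p = 0.0329 by edgeR) and that of let-7a-5p 3.71 (SE 0.71). For let-7a-5p the value without the correction was 2.52 (SE 0.43). With the correction but without resistant replicate 3, a fit chosen after seeing the data, let-7f-5p had 1.11 (SE 0.18) and let-7a-5p 2.45 (SE 0.16). The size of the corrected value for let-7a-5p thus depended on that library.

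No listed cluster partner of the let-7 hairpins was called higher. The list of cluster partners held 7 arms, of which 5 were tested, 2 fell and 0 rose with edgeR, 3 had an unadjusted p under 0.05, and DESeq2 called 3 lower and 0 higher. Over all 768 tested miRNAs, edgeR called 16 lower, 205 had an unadjusted p under 0.05 and DESeq2 called 51 lower. miR-99a-5p, made from the same host gene as let-7c-5p, averaged 16.5 ± 4.84 CPM in resistant and 370.3 ± 83.5 CPM in sensitive cells (SD, n = 3 each) and fell 22.3-fold (adjusted p = 0.00219 by edgeR). let-7c-5p thus had 28.3, 20.9 and 117 counts per count of miR-99a-5p in resistant replicates 1 to 3, against 0.272, 0.433 and 0.277 in sensitive replicates 1 to 3. miR-125b-5p, made in the chromosome 11 cluster and also from a hairpin in MIR99AHG, averaged 1.72 ± 0.350 CPM in resistant and 30.3 ± 2.89 CPM in sensitive cells and fell 17.7-fold (adjusted p = 0.00219 by edgeR). miR-100-5p of the chromosome 11 cluster had 13, 11 and 0 counts in resistant and 45, 49 and 12 counts in sensitive libraries and fell when resistant replicate 3 was left out (adjusted p = 0.0125 by edgeR, against 0.134 with it). The partners of let-7e-5p, miR-99b-5p (0.27 on the log2 scale, adjusted p = 0.655 by edgeR) and miR-125a-5p (0.00, adjusted p = 0.9995 by edgeR), did not pass. The 3p arms of their hairpins, not on the list, did not pass either. miR-99b-3p had 1.14 and miR-125a-3p 1.30 on the log2 scale (adjusted p = 0.212 and 0.259 by edgeR). Without resistant replicate 3 these were 0.47 and 0.11 (adjusted p = 0.181 and 0.811 by edgeR). Both arms of miR-4763, beside MIRLET7B, had 0 counts in all 6 libraries, which allows up to 0.911 CPM of unscaled counts in resistant replicate 3, the shallowest library, at a floor of 3 counts.

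MIR135A1, which lies on the same strand within 60000 bases of MIRLET7G, was not on that list and was added after its values were seen. miR-135a-3p had 100.3, 70.8 and 316 CPM in resistant replicates 1 to 3, against 5.66, 7.25 and 8.70 CPM in sensitive replicates 1 to 3. It rose 22.5-fold (adjusted p = 0.0154 by edgeR), and 12.4-fold without resistant replicate 3 (adjusted p = 2.94e-06 by edgeR). miR-135a-5p, which a hairpin on another chromosome also makes, had 238, 246 and 20.0 CPM in resistant replicates 1 to 3, against 36.3, 37.7 and 26.3 CPM in sensitive replicates 1 to 3. It was low in resistant replicate 3 and did not pass with all libraries (adjusted p = 0.139 by edgeR), but rose 7.49-fold without that library (adjusted p = 4.07e-06 by edgeR). let-7g-5p itself rose 2.07-fold in that fit.

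Of the 11 passenger strands, from the 3p arms of the same hairpins, 4 had enough counts to be tested. With edgeR 0 passed and 1 had an unadjusted p under 0.05, as did 205 of all 768 tested miRNAs. DESeq2 called 1 higher, where 12.8% of all were. The log2 fold changes of these 4 were all positive, where 46.2% of all tested had a positive one. Without resistant replicate 3, let-7a-3p rose 3.90-fold (adjusted p = 5.26e-05 by edgeR) and let-7f-2-3p rose 1.90-fold (adjusted p = 0.0414 by edgeR). That fit called 13.7% of 822 tested miRNAs higher and 28.1% in either direction. let-7a-3p, which the chromosome 9 and 22 hairpins make, had 2025, 2965 and 96 counts in resistant and 641, 605 and 305 counts in sensitive libraries, so resistant replicate 3 was low for this strand while it was high for let-7a-5p.

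Other miRNAs with the same seed added little. In the table, miR-4458 and miR-4500 share all 7 seed bases with let-7, and miR-202-3p differs from it within the seed. They are shown with bases 2 to 8 in capitals.
miR-4458: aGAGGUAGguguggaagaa
miR-4500: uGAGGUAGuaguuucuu
miR-202-3p: aGAGGUAUagggcaugggaa

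miR-4458 had 2, 5 and 6 counts in resistant and 4, 0 and 0 counts in sensitive libraries, and miR-4500 had 0 in all 6. miR-202-3p had 19, 30 and 61 counts in resistant and 2, 0 and 0 counts in sensitive libraries. It missed the threshold with all libraries (adjusted p = 0.0509 by edgeR) and rose without resistant replicate 3 (adjusted p = 0.000899 by edgeR). Against 41390 to 124463 counts of the 9 guide strands in resistant and 17225 to 44304 in sensitive libraries, the let-7 seed was carried almost wholly by the guide strands.

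Profile likeness was measured as the root mean square difference between log2 CPM values centred over the 6 libraries, against the summed family, for 458 tested miRNAs outside the family and its passenger strands with a mean of at least 10 CPM. The nearest were miR-200c-3p (0.136), miR-4326 (0.159), miR-1296-5p (0.272), miR-106b-3p (0.284) and miR-149-5p (0.321), where the median was 1.20. miR-200c-3p, an epithelial miRNA, had 321, 294 and 438 CPM in resistant replicates 1 to 3, against 102, 93.1 and 79.6 CPM in sensitive replicates 1 to 3, and was the only one of these 5 that passed with all libraries (1.94 on the log2 scale, adjusted p = 0.0355 by edgeR). All 5 rose without resistant replicate 3, with adjusted p from 9.62e-05 for miR-200c-3p to 0.00769 for miR-149-5p by edgeR. In that fit 13.7% of 822 tested miRNAs were called higher. The 5 were picked for likeness to the family over these same libraries, so their calls give no separate support. Among the members themselves let-7d-5p was nearest to the sum at 0.222, and let-7b-5p and let-7f-5p were furthest at 1.28 and 1.01.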

How the data were processed

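Small RNA libraries were made with a NEBNext kit and sequenced on an Illumina instrument, per the labels' protocols. The authors deposited read counts per mature miRNA, 1 column per library and not normalized, with GRCh38 named in the submitters' processing notes. The sources used here name no aligner, counting program, miRBase release or read filter. The labels name no molecular identifiers.

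Groups came from the sample titles. Counts were filtered with filterByExpr (minimum count 10, minimum total 15), scaled by TMM factors and tested over all miRNAs with edgeR 4.0.16 in R 4.3.3 (quasi-likelihood, no covariates, Benjamini-Hochberg, threshold 0.05). CPM use TMM-scaled library sizes. Fold changes are resistant over sensitive, and each SE is the size of that log2 value over the root of its F statistic. Family shares and make-up were compared by exact permutation (SciPy 1.17.1). Replicates of a group differed beyond sampling noise (chi-square per degree of freedom 124 to 4015). The fit was checked on simulated counts. RefSeq gave sequences for 89.1% of the 2656 miRNAs, and GENCODE 29 gave host genes. The GC correction (loess, span 0.7) used sequences for 88.2% of the tested miRNAs. Alternatives included DESeq2 1.42.0 and limma 3.58.1. The rule for named miRNAs took all 9 members, list members past the threshold and the 5 nearest profiles. Members and lists were chosen with earlier results of these data known.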

Additional observations from a re-analysis of the deposited data

How the results depend on the processing

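The number of members called higher, 4 of 9, was 2 with RLE factors, 2 with a minimum mean of 10 CPM and 1 with the replicate number as a block. These fits called 9 of 768, 8 of 471 and 8 of 768 miRNAs higher. The number was 7 with DESeq2, 8 with a GC correction and 8 with a GC correction without resistant replicate 3, chosen after seeing the data. Here 98 of 768, 43 of 768 and 108 of 822 miRNAs were called higher. The number was 0 of 5 features when members 1 base apart were merged, where 7 of 764 features were called higher. It was 0 to 8 over the fits that left out 1 library each, which called from 1 of 800 to 113 of 822 miRNAs higher. The summed family, at a log2 fold change of 1.76, passed with library totals (1.83), DESeq2 (1.93), limma-voom (1.72), a GC correction (2.95) and a GC correction without resistant replicate 3 (1.80). With 1 library left out it ran from 1.51 to 2.17 and passed only without resistant replicate 3. The cause of these shifts was not tested. With the replicate number as a block the sum had 1.72 (edgeR adjusted p = 0.129). Same-numbered libraries deviated together at r = -0.06, 0.26 and 0.13. Resistant replicates 2 and 3 correlated best with the sensitive library of their own number, but resistant replicate 1 did so with sensitive replicate 2 (0.20). The numbers were not taken as pairs, though these values do not settle whether they are. With the block and a GC correction together, 5 members were called higher, where 28 of 768 miRNAs were. The sum then had 2.49 (edgeR adjusted p = 0.0736). The difference in family share, 0.862 percentage points, was 1.57 points when the most abundant miRNA of each library was left out of the total and 0.834 to 0.878 points with 1 library left out. No member reversed direction under the alternatives run. The median log2 fold change of all tested miRNAs was -0.11 with TMM factors, -0.01 with RLE factors and 0.09 with library totals, against 1.16, 1.37 and 1.34 for the members. At 3291500 counts, resistant replicate 3 limits the scarce members most, with 50 counts of miR-98-5p.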
